A study of Mus musculus with 18 samples.

Results

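The tumors compared here received the same ribozyme in 2 carriers. Of the 18 B16F10 melanomas of the series, 3 in each of 6 groups, the 3 injected with PS473@NKMOF-101-[Mn] and the 3 injected with PS473@CPs were selected from their sample records, so that 6 tumors carry the comparison. They are called framework tumors and polymer tumors in what follows. B16F10 is a mouse melanoma cell line. It was implanted under the skin of female C57BL/6 mice, and from day 6 the formulations were injected into the tumors every 2 days, with tissue taken 48 h after the last injection. PS473 is a Pistol ribozyme, a small self-folding RNA that cuts RNA at a GU dinucleotide and is designed here against the mRNA of PD-L1. NKMOF-101-[Mn] is a framework of manganese ions and an organic linker, and CPs stands for cationic polymers. Neither group differs from the other in the ribozyme it was labelled to receive, whereas manganese was given in the framework group only. A group with the polymer alone was not analysed here, so the ribozyme and the polymer cannot be told apart within PS473@CPs. The titles of the sample records name the framework NKMOF-102 and their treatment notes NKMOF-101, and the second name is used here. The other 12 tumors (PBS, Free PS473, the framework alone, and M5@NKMOF-101-[Mn], which carries the mutated ribozyme M5) enter as a reference range and in the estimate of the variance.

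PD-L1, the product of Cd274, is a checkpoint ligand on tumor and myeloid cells that restrains T cells through PD-1. Its transcription is raised by interferon through JAK and STAT proteins, so that its mRNA in a tumor depends on inflammation as well as on any cleavage. Manganese ions are a cofactor for many enzymes and are known to sensitise cGAS, the cytosolic DNA sensor that signals through STING to type I interferon. Foreign RNA can reach the same interferon genes through the sensors RIG-I and MDA5.

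The sequences of the designed ribozyme and of its target are shown because both groups were labelled to receive PS473. Capitals in the ribozyme mark the bases that pair with the target, and capitals in the target mark the GU that is cleaved.
PS473: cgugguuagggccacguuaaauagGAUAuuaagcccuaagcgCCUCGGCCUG
PS473 target in Cd274: caggccgaggGUuauc
The target was found in the coding sequence of Cd274 on the plus strand at chr19:29380372-29380387 of mouse build GRCm38, in exon 4, with the G of the GU at coding position 473. The ribozyme of the design table has 52 bases. The study's text describes a form of PS473 with a longer pairing stem as the optimized construct, whose sequence is not printed here. It uses the name PS473 for that form in its later experiments. The 52 bases above may therefore not be the molecule that was injected, and its pairing bases may be more.

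Gene expression was measured as FPKM, fragments scaled to the length of a gene and to the fragments of a library, from libraries enriched for poly(A) RNA. The fragments assigned to genes, recovered from the steps between low FPKM values, numbered 20165000 to 28401000 in polymer tumors and 20437000 to 23646000 in framework tumors. B16F10 identity was checked with 18 melanocyte lineage genes, all of which passed the expression filter, and their mean log2(FPKM + 1) was 6.07 to 6.47 in polymer tumors and 6.43 to 6.48 in framework tumors. Some libraries stood apart within their own group. Polymer tumor 2 had the highest summed level of 29 keratinocyte genes among the 6, at 7767 FPKM against 13.1 to 532 FPKM in the others, and of 14 neutrophil genes, at 303 FPKM against 0.818 to 3.10 FPKM. Framework tumor 2 had the highest level of interferon-stimulated genes, and framework tumor 3 the lowest level of small nucleolar RNAs, in all 18 tumors. In bulk tumor RNA, fewer cells of a type and less RNA per cell cannot be told apart.

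No gene passed the test between the carriers. Of the 12357 genes that averaged 1 FPKM or more, 0 (0%) were called at an adjusted p under 0.05 with a difference over 2-fold (limma on log2(FPKM + 1), Benjamini-Hochberg). At an unadjusted p under 0.05 there were 283 genes, 2.29% of those tested, of which 124 (1.00%) were higher with the framework and 159 (1.29%) were lower. That balance turned to 216 higher and 128 lower genes under quantile normalization, 183 and 151 with array weights, 538 and 125 without framework tumor 3 and 544 and 388 without polymer tumor 3, and it was near even under upper-quartile scaling, at 154 and 151. The smallest adjusted p was 0.487, for Gm23639, and every other gene named below had an adjusted p of at least 0.996, so the unadjusted p values below only order the genes. The groups did not overlap for 233 genes that were higher (1.89%) and 276 that were lower (2.23%) in framework tumors. These shares are the background for every separated list member named below, and 1 separated member of a list is a description only. The median log2 difference of all genes was 0.0013, and the 95% interval of the difference lay wholly within 2-fold in either direction for 89% of them. Of the 33 genes with an unadjusted p under 0.05 and a difference over 2-fold, all were lower in framework tumors. Without polymer tumor 2, 87 genes had an unadjusted p under 0.05, 58 of them from the 283.

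**Figure D1:**
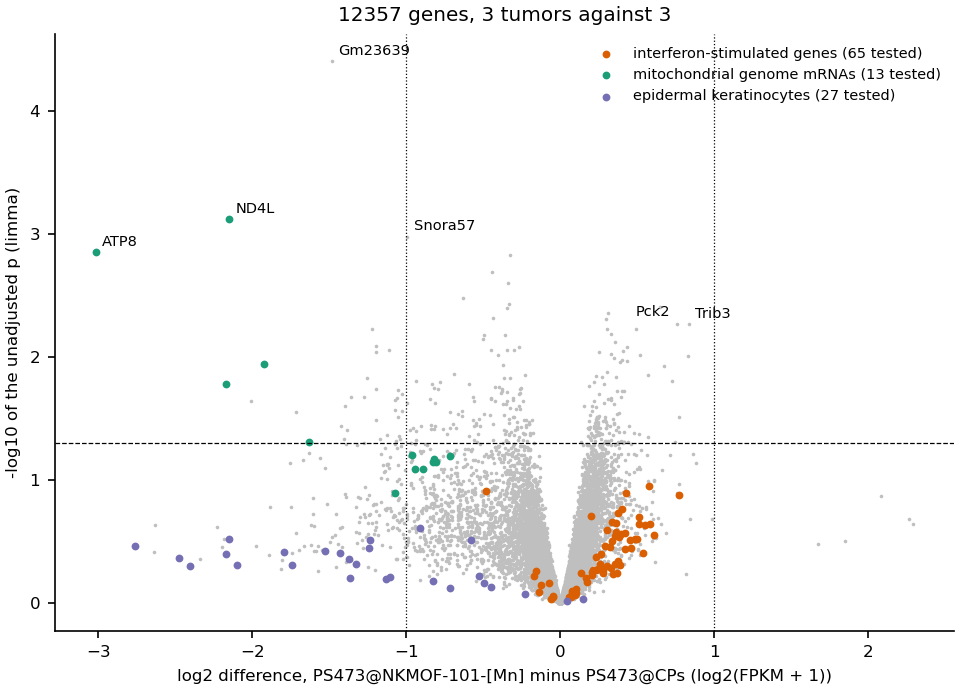
Log2 difference of framework tumors minus polymer tumors (horizontal axis) against the -log10 of the unadjusted limma p (vertical axis) for 12357 genes, with 3 gene lists in color, a dashed line at the unadjusted threshold and dotted lines at 2-fold. The interferon-stimulated genes lie mostly right of 0 below the dashed line, and 5 of the 13 mitochondrial mRNAs lie above it on the left.

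The 10 genes that were higher in framework tumors with the smallest p included several enzymes of amino acid and mitochondrial metabolism. Trib3, a pseudokinase of the integrated stress response, measured 8.66, 10.4 and 12.1 FPKM in polymer tumors 1 to 3 and 17.8, 16.5 and 23.8 FPKM in the framework tumors. The groups did not overlap, and all 3 polymer tumors lay below the range of the other 12 tumors, 14.8 to 36.1 FPKM. The log2 difference of Trib3 was 0.84 ± 0.26 (SE; unadjusted p = 0.00541, adjusted p = 0.996). Pck2, the mitochondrial phosphoenolpyruvate carboxykinase, measured 7.08, 6.38 and 9.95 FPKM with the polymer and 14.2, 10.2 and 17.8 FPKM with the framework. Its groups were separated by a narrow gap, between polymer tumor 3 and framework tumor 2, and the log2 difference was 0.76 ± 0.23 (SE; unadjusted p = 0.00539, adjusted p = 0.996). Aldh18a1, the enzyme that opens proline synthesis, measured 25.4, 26.2 and 29.6 FPKM with the polymer and 43.0, 29.5 and 44.4 FPKM with the framework, with an overlap at framework tumor 2. Gars1, the glycyl-tRNA synthetase, measured 173, 158 and 173 FPKM against 218, 180 and 252 FPKM, without overlap.

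The remaining genes of these 10 differed less. Nadk2, the mitochondrial NAD kinase, measured 8.51, 7.06 and 7.92 FPKM in polymer tumors and 9.05, 10.2 and 10.3 FPKM in framework tumors, a log2 difference of 0.30 ± 0.09 (SE). Flot2, a scaffold protein of membrane microdomains, measured 11.7, 12.1 and 15.4 FPKM against 15.6, 16.4 and 17.1 FPKM. Vps8, a subunit of the endosomal tethering complex CORVET, measured 5.66, 4.47 and 6.38 FPKM against 6.95, 6.53 and 7.44 FPKM. The groups did not overlap for any of these 3 genes. 1700019D03Rik had the smallest p of the 10, with 2.22, 2.09 and 3.56 FPKM in polymer tumors and 3.68, 5.18 and 5.07 FPKM in framework tumors (unadjusted p = 0.00391, adjusted p = 0.996). The noncoding RNAs Rsf1os2 and Gm11110 had log2 differences of 0.33 ± 0.10 and 0.44 ± 0.14 (SE). Rsf1os2 is antisense to Rsf1, and since the counting is not stated to use strand, reads of the 2 genes cannot be told apart.

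The 10 genes that were lower with the smallest p held 2 small nucleolar RNAs and 2 mitochondrial mRNAs. Gm23639, a small nucleolar RNA of 132 bases, measured 4.98, 7.80 and 4.07 FPKM in polymer tumors and 1.52, 1.80 and 0.741 FPKM in framework tumors. The groups did not overlap, and the log2 difference was −1.48 ± 0.25 (SE; unadjusted p = 3.94e-05, adjusted p = 0.487). Gm23639 lies inside the noncoding host gene Epb41l4aos, which measured 17.3 to 27.5 FPKM against 7.85 to 16.9 FPKM, so that reads of the host and of the small RNA cannot be told apart. Snora57 measured 4.57, 3.60 and 1.55 FPKM against 0.846, 0.846 and 1.44 FPKM, and the groups were separated by a narrow gap between polymer tumor 3 and framework tumor 3. Snora57 has 148 bases, and the median length of the genes tested was 3970 bases. For RNAs this short, such FPKM values rest on few fragments, so both differences lie near the counting floor.

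Anapc10, a subunit of the anaphase-promoting ubiquitin ligase, measured 2.46, 2.68 and 2.11 FPKM with the polymer and 1.71, 1.57 and 1.78 FPKM with the framework. The groups did not overlap, and the framework tumors lay below the range of the other 12, 2.04 to 2.82 FPKM. Uchl3, a ubiquitin hydrolase, measured 21.7, 27.2 and 20.6 FPKM against 15.6, 16.7 and 17.8 FPKM, without overlap. Uchl3 has a close copy, Uchl4, and the counting could split reads between the 2 genes.

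Wrap53, which carries telomerase RNA to Cajal bodies, had a log2 difference of −0.34 ± 0.09 (SE). Fam3c, a secreted cytokine-like protein, and the noncoding RNA 1110038B12Rik had log2 differences of −0.33 ± 0.10 and −0.63 ± 0.18 (SE). Wrap53 and 1110038B12Rik did not overlap between the groups, and Fam3c did.

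**Figure D2:**
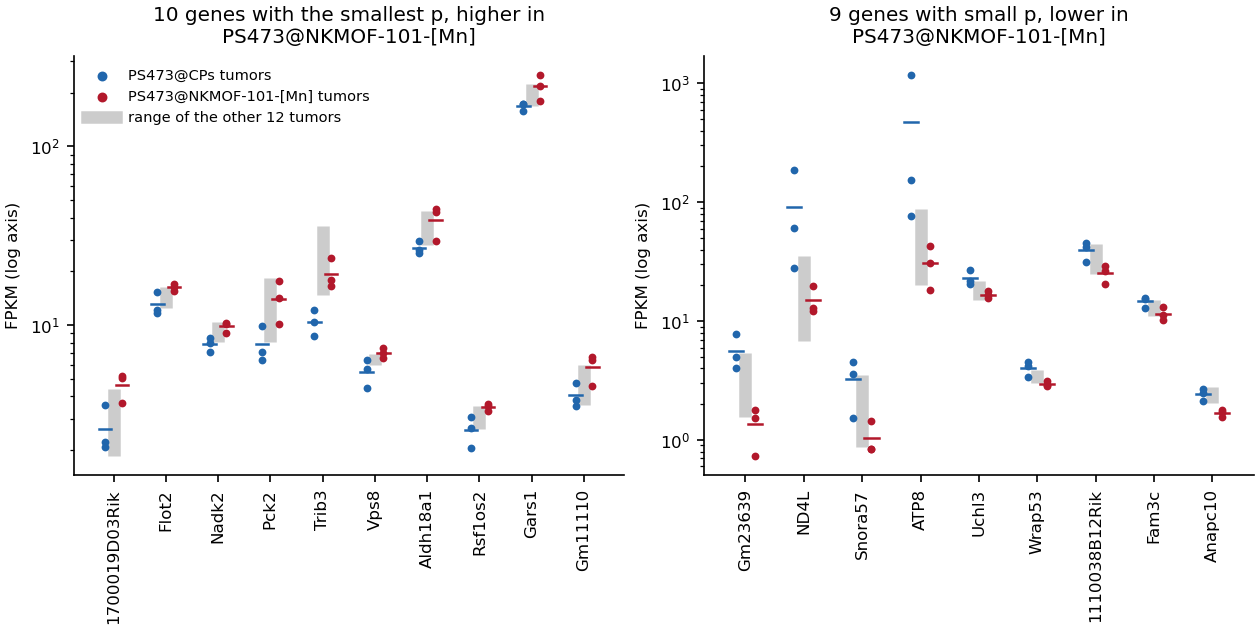
FPKM on a log axis in each polymer (blue) and framework (red) tumor for genes with the smallest unadjusted p in each direction (10 higher, 9 lower), with lines at the group means and gray bars for the range of the other 12 tumors. Trib3 in polymer tumors and Anapc10 in framework tumors lie below the gray bars.

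The mRNAs encoded in the mitochondrial genome, which specify subunits of the respiratory chain and ATP synthase, were lower in framework tumors for 13 of 13, with a median log2 difference of −0.97 against 0.0013 for all genes. Of these, 5 had an unadjusted p under 0.05 (ND4L, ATP8, COX3, ATP6 and COX2), where 1.29% of all genes did on that side, and 3 did not overlap. ATP8, a small subunit of ATP synthase, measured 75.9, 1179 and 155 FPKM in polymer tumors and 18.2, 30.6 and 43.2 FPKM in framework tumors. Polymer tumor 2 was far above every other tumor, and the log2 difference was −3.02 ± 0.77 (SE; unadjusted p = 0.0014, adjusted p = 0.996). ND4L, a subunit of complex I, measured 60.9, 185 and 27.9 FPKM against 12.9, 12.2 and 19.8 FPKM, without overlap. COX3, a core subunit of cytochrome c oxidase, measured 71.2, 584 and 65.8 FPKM against 21.6, 37.9 and 57.6 FPKM, without overlap. These genes overlap their neighbors in the mitochondrial genome or have near-identical nuclear copies, so their counts are uncertain.

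ATP6 and COX2 overlapped between the groups, with log2 differences of −2.17 ± 0.80 and −1.63 ± 0.76 (SE). The highest framework value of ATP6, 240 FPKM in tumor 3, was above 2 polymer tumors. The other 8 mRNAs (COX1, CYTB, ND1, ND2, ND3, ND4, ND5 and ND6) had log2 differences between −1.07 and −0.72. COX1 measured 5417, 14856 and 4860 FPKM with the polymer and 2823, 4759 and 6573 FPKM with the framework, so that its groups overlapped. Without polymer tumor 2 the median of the 13 was −0.28 and 2 had an unadjusted p under 0.05, while 13 of 13 were still lower. Without framework tumor 3 the median was −1.38 and 13 of 13 had an unadjusted p under 0.05. The summed level of the 13 was 11909 to 45029 FPKM in polymer tumors, 6652 to 17628 FPKM in framework tumors and 6795 to 11648 FPKM in the other 12. Of 30 respiratory chain genes of the nuclear genome, 19 were lower and 11 higher, with a median of −0.05. Cox6c was the one member whose groups did not overlap, at 277, 323 and 252 FPKM against 214, 242 and 217 FPKM.

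**Figure D3:**
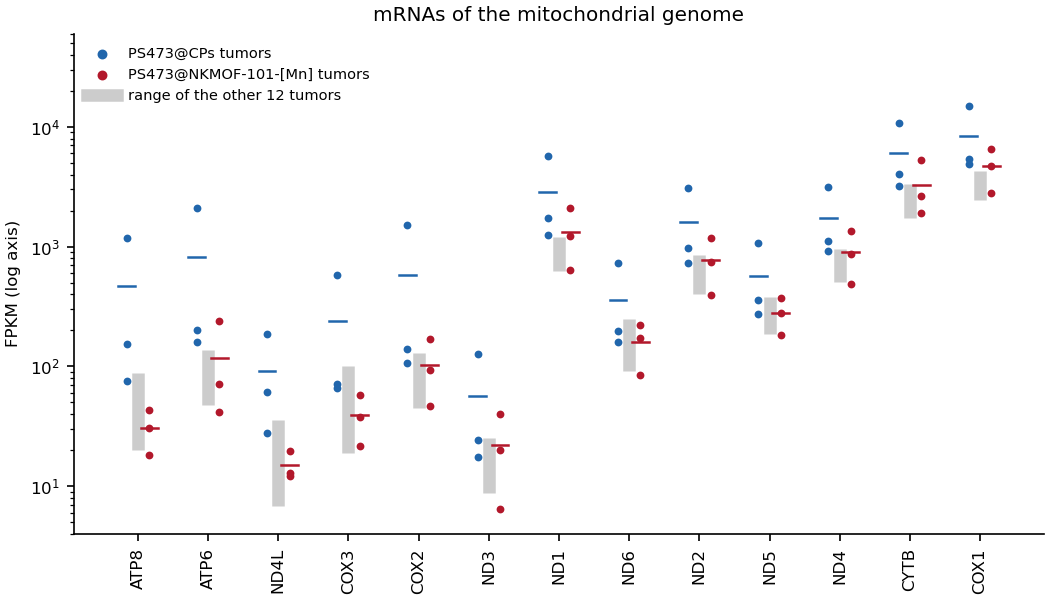
FPKM on a log axis of the 13 mitochondrial mRNAs in each polymer (blue) and framework (red) tumor, ordered by log2 difference, with lines at the group means and gray bars for the range of the other 12 tumors. The highest value of each mRNA belongs to polymer tumor 2, and ATP8, ND4L and COX3 do not overlap between the groups.

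Cd274, the transcript that PS473 targets, measured 11.9, 12.6 and 24.5 FPKM in polymer tumors and 17.0, 32.9 and 9.74 FPKM in framework tumors. The highest and the lowest of the 6 values both belonged to the framework group. The means were 16.3 ± 7.10 and 19.9 ± 11.9 FPKM (SD, n = 3 each). The log2 difference was 0.18 ± 0.34 (SE), with a 95% interval from −0.54 to 0.90 (adjusted p = 0.996). A two-sided exact permutation test of the 6 tumors gave p = 0.7, where 0.1 is the smallest p that 3 tumors against 3 allow. Without framework tumor 2 the log2 difference was −0.25. The other groups averaged 16.5 ± 4.64 FPKM for PBS, 12.7 ± 1.21 FPKM for Free PS473, 14.9 ± 0.945 FPKM for NKMOF-101-[Mn] and, with the inactive ribozyme, 23.7 ± 3.94 FPKM for M5@NKMOF-101-[Mn] (SD, n = 3 each). Of neighbors in the order of these means, Free PS473 (11.7 to 14.0 FPKM) and NKMOF-101-[Mn] (14.1 to 15.9 FPKM) did not overlap, and the other neighbors did. Of 18 tested genes of PD-L1 and its interferon-JAK-STAT control, 13 were higher and 5 lower, with a median of 0.08 and 0 at an unadjusted p under 0.05. Socs3, a feedback inhibitor of JAK signaling, was the one whose groups did not overlap, at 15.3, 53.4 and 19.7 FPKM against 11.4, 11.9 and 11.7 FPKM (log2 difference −1.06 ± 0.51, SE).

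**Figure D4:**
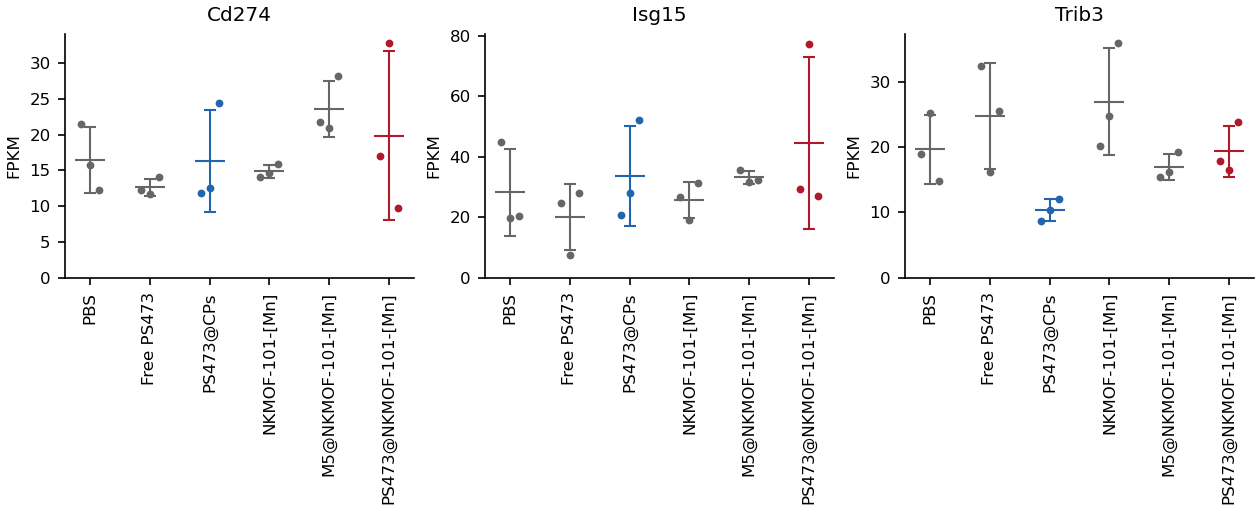
FPKM of Cd274, Isg15 and Trib3 in all 6 groups, with a point for each tumor, a line at the mean and bars of 1 SD (n = 3). Cd274 and Isg15 vary most among framework tumors, where tumor 2 measures 32.9 and 77.2 FPKM, and Trib3 is lowest among polymer tumors.

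Interferon-stimulated genes were higher in framework tumors for 56 of 65 tested, with a median log2 difference of 0.31, but 0 had an unadjusted p under 0.05 and 0 were separated. Isg15, a ubiquitin-like antiviral protein, measured 20.6, 28.0 and 52.2 FPKM in polymer tumors and 29.4, 77.2 and 27.0 FPKM in framework tumors. The mean of the list in log2(FPKM + 1) was 2.73, 3.12 and 3.66 with the polymer and 3.11, 4.22 and 2.83 with the framework, so that 1 tumor of each group was high. Without framework tumor 2, 16 of 65 were higher and the median was −0.15. Without polymer tumor 1 the median was 0.09, while without framework tumor 3 and without polymer tumor 3 it was 0.60 and 0.58. The latter fits put 10 and 8 genes of the list on the higher side with an unadjusted p below 0.05. Of all 12357 genes they put 538 and 544 there, against 124 with every tumor kept. The background had thus risen too, and the 10 and 8 are a description only. Cmpk2, a mitochondrial nucleotide kinase of this list, had a log2 difference of 0.58 ± 0.34 (SE), and Isg20, an exonuclease, 0.40 ± 0.35 (SE). Cxcl10, the ligand of CXCR3 on T cells, measured 203, 284 and 198 FPKM against 157, 288 and 92.3 FPKM. Ifnb1 was above 0 in 1 of the 6 tumors, at 0.0573 FPKM.

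Of 14 tested cGAS-STING genes, 7 were higher and 7 lower, with a median of −0.00. Cgas measured 7.69, 5.21 and 5.72 FPKM against 6.36, 7.90 and 4.76 FPKM, and Sting1 7.40, 8.96 and 10.9 FPKM against 9.43, 12.9 and 8.64 FPKM. Both overlapped, and their log2 differences were 0.02 ± 0.16 and 0.17 ± 0.13 (SE). Zdhhc1, a protein of this list that aids STING signaling, was lower without overlap, at 5.40, 5.56 and 5.29 FPKM against 4.80, 4.88 and 1.78 FPKM. Of 21 RNA sensors and adaptors, 13 were higher, with a median of 0.09. Traf6, a ubiquitin ligase of innate signaling, was the one separated member, at 6.00, 6.58 and 7.31 FPKM against 7.72, 8.00 and 7.57 FPKM. The MHC class I list (11 of 20 higher, median 0.06, Psmb10 at 0.37 ± 0.31) and the MHC class II list (7 of 9 higher, median 0.42, H2-DMb1 at 0.50 ± 0.27) overlapped for every member. Their direction rested on single tumors. Without framework tumor 2, 3 of 20 class I and 4 of 9 class II genes were higher, with medians of −0.17 and −0.04, and without polymer tumor 1 the counts were 5 and 4, with medians of −0.17 and −0.02.

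Inflammatory cytokines and chemokines were lower in framework tumors for 16 of 18 tested, with a median of −0.49, and genes of the IL-17 response for 14 of 14, with a median of −0.57. No tested member of either list had an unadjusted p under 0.05 or separated groups. Ccl4, a chemokine for macrophages and T cells, measured 2.67, 7.01 and 5.95 FPKM against 1.12, 5.73 and 1.85 FPKM. Lcn2, an iron-sequestering protein of neutrophils and inflamed epithelium, measured 0.0581, 21.2 and 1.24 FPKM against 0.0744, 0.446 and 0.0574 FPKM. Without polymer tumor 2, 10 of the 18 and 5 of the 14 were lower, and the medians were −0.01 and 0.03. That tumor also held the highest summed level of keratinocyte and neutrophil genes, whose part in these lists was not tested. Il6 and Tnf were below the filter. Il6 measured 0.65, 1.58 and 0.556 FPKM against 0.101, 0.269 and 0.292 FPKM, without overlap, and Tnf 0.405, 1.60 and 0.607 FPKM against 0.384, 0.749 and 0.326 FPKM, with an overlap.

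Of the TNF and NF-kappaB response genes, 17 of 26 were lower, with a median of −0.08, 2 at an unadjusted p under 0.05 and 4 separated, where 1.29% and 2.23% of all genes were on that side. The 2 were Fos and Jun, the partners of the AP-1 transcription factor, and the other separated genes were Junb and Vcam1. Jun measured 80.2, 170 and 60.7 FPKM in polymer tumors and 55.4, 33.7 and 35.3 FPKM in framework tumors, without overlap, a log2 difference of −1.20 ± 0.40 (SE; unadjusted p = 0.00914, adjusted p = 0.996). Fos measured 89.4, 281 and 90.1 FPKM against 69.2, 39.8 and 56.8 FPKM, again without overlap and with the highest value in polymer tumor 2. Complement genes were lower for 14 of 17, with a median of −0.15, which was −0.01 without framework tumor 1, −0.02 without polymer tumor 2 and −0.42 without framework tumor 2. Cfd, complement factor D and also an adipocyte product, measured 6.18, 4.96 and 4.92 FPKM against 0.806, 1.64 and 3.21 FPKM, and the other 12 tumors measured 0 to 23.1 FPKM.

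Markers of T and NK cells were near the detection limit, with 9 of 34 tested. Of these, 2 were higher and 7 lower, with a median of −0.08, and the summed level of the list was 15.8 to 48.6 FPKM with the polymer and 15.9 to 58.0 FPKM with the framework. Cd8a measured 0.333, 1.07 and 0.956 FPKM against 0.574, 2.35 and 0.547 FPKM, Cd4 at most 0.346 FPKM, Ifng at most 1.38 FPKM and Gzmb 0.525, 3.77 and 4.04 FPKM against 1.06, 6.81 and 1.08 FPKM. Foxp3, the factor of regulatory T cells, was the one separated member, at 2.29, 2.36 and 2.01 FPKM against 1.52, 1.87 and 1.78 FPKM (log2 difference −0.24 ± 0.10, SE). The other 12 tumors measured 1.51 to 2.21 FPKM for Foxp3, and it exceeded Cd4 in all 18. Whether its level follows regulatory T cells here was not tested. B and plasma cell genes had 5 of 18 tested, 4 of them lower and 3 separated on the lower side (Igkc, Ighg2b and Sdc1), where 2.23% of all genes were. Igkc, the kappa light chain, measured 21.0, 2.17 and 4.04 FPKM against 0.33, 1.30 and 0.752 FPKM, and Ighg2b 11.0, 0.267 and 1.27 FPKM against 0, 0.0974 and 0.0601 FPKM. Polymer tumor 1 was the highest of the 6 for both. In the other 12 tumors Igkc measured 0.426 to 50.3 FPKM and Ighg2b 0 to 14.6 FPKM, both highest in NKMOF-101-[Mn] tumor 3. Sdc1, a syndecan of plasma cells and of epithelium, measured 17.1, 64.7 and 16.4 FPKM against 13.4, 14.2 and 12.2 FPKM, highest in polymer tumor 2, where the keratinocyte genes were also highest. Their part in this value was not tested, and without that tumor its log2 difference was −0.31 in place of −0.94.

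Macrophage and monocyte genes were lower for 13 of 16, with a median of −0.20, which was −0.06 without polymer tumor 2, −0.07 without framework tumor 3 and −0.37 without framework tumor 2. Adgre1, which encodes F4/80, measured 3.14, 4.15 and 3.67 FPKM against 2.89, 4.36 and 3.22 FPKM, and Lyz2, lysozyme, 47.3, 68.1 and 53.6 FPKM against 41.1, 45.5 and 40.9 FPKM. Lyz2 did not overlap, and its log2 difference was −0.38 ± 0.60 (SE). Dendritic cell genes (3 of 5 lower, Fscn1 at −0.72 ± 0.55) and neutrophil genes (2 of 14 tested, both lower) overlapped. S100a8, an abundant neutrophil protein, was listed at 0 in 3 of the 6 tumors and at 178 FPKM in polymer tumor 2. Ly6g and Mpo were at 0 in all 6.

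**Figure D5:**
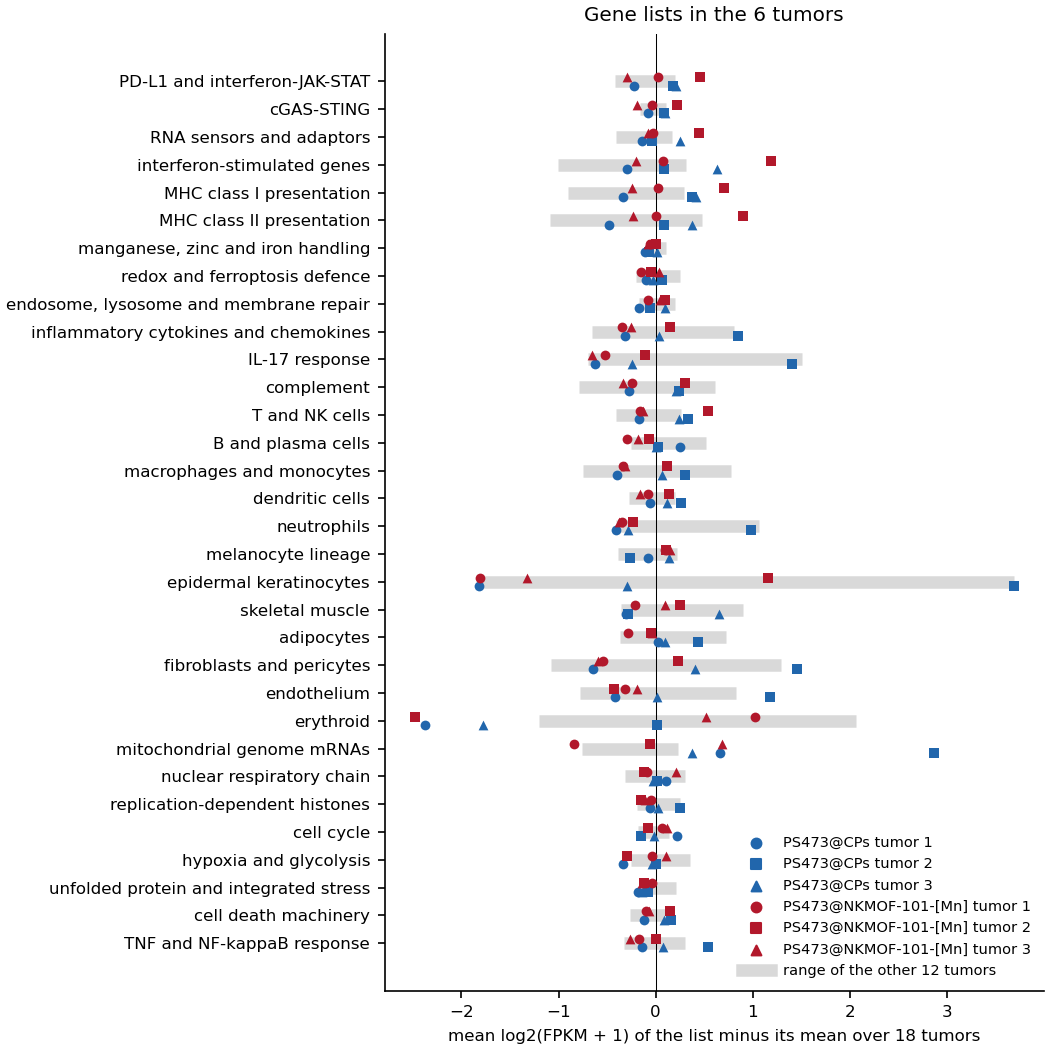
Mean log2(FPKM + 1) of each gene list in the 6 tumors, less its mean over 18 tumors, with blue symbols for polymer tumors, red for framework tumors, a shape for each tumor number and gray bars for the range of the other 12 tumors. Of the 6, polymer tumor 2 is farthest right for the keratinocyte and mitochondrial lists, and framework tumor 2 for the interferon-stimulated genes.

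Cells of the skin and stroma differed widely within each group. Krt14, a keratin of the basal epidermis, measured 0.0272, 1756 and 36.3 FPKM in polymer tumors and 0.162, 75.7 and 4.07 FPKM in framework tumors, and Krt5 0, 837 and 30.2 FPKM against 0.0959, 67.6 and 3.43 FPKM. Keratinocyte genes were lower for 25 of 27, with a median of −1.24, and without polymer tumor 2 higher for 27 of 27, with a median of 0.32. Trp63, the epidermal master regulator, was above 1 FPKM in that tumor only among the 6, at 7.89 FPKM. Hair shaft genes had 0 of 22 tested, and 12 were at 0 in all 6 tumors. Fibroblast and pericyte genes were lower for 18 of 19 (median −0.79, Cspg4 at −0.56 ± 0.28), endothelial genes for 14 of 14 (median −0.70, Robo4 at −0.76 ± 0.41) and adipocyte genes for 5 of 6 (median −0.33), and without polymer tumor 2 the medians were −0.21, −0.13 and −0.05. Skeletal muscle genes had 6 of 22 tested, with a median of 0.08 and Mylpf at −0.30 ± 0.24.

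Erythroid genes gave the 5 differences over 2-fold on the higher side: Hbb-bs, Hbb-bt, Hba-a1, Hba-a2 and Alas2, the heme synthesis enzyme of red cells. Alas2 measured 0.377, 6.80 and 0.65 FPKM in polymer tumors and 41.0, 0.305 and 23.4 FPKM in framework tumors. The groups overlapped because framework tumor 2 was the lowest of the 6, and the log2 difference was 2.08 ± 1.31 (SE). The globins had log2 differences of 1.68 to 2.29 and are near-identical copies in pairs. The summed erythroid level was 45.6, 1567 and 138 FPKM with the polymer and 5414, 41.7 and 3021 FPKM with the framework.

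Melanocyte genes were higher for 14 of 18, with a median of 0.28. Tyr, tyrosinase, measured 63.2, 64.5 and 89.4 FPKM against 74.6, 103 and 92.0 FPKM. Gpr143, a melanosome receptor, was separated, at 18.3, 13.1 and 20.3 FPKM against 22.8, 21.1 and 21.5 FPKM (log2 difference 0.34 ± 0.26, SE). Without polymer tumor 2 the median was 0.10 and 14 of 18 were higher.

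Genes that handle manganese, zinc and iron had 13 of 21 higher and a median of 0.02. The metallothionein Mt1 measured 169, 173 and 192 FPKM with the polymer and 173, 129 and 248 FPKM with the framework, and Mt2 192, 304 and 283 FPKM against 264, 222 and 326 FPKM. Their log2 differences were −0.01 ± 0.25 and 0.07 ± 0.33 (SE), and that of Mt1 was 0.04 under quantile normalization and 0.01 under upper-quartile scaling. Slc39a14, an importer of manganese and zinc, measured 7.24, 8.08 and 7.52 FPKM against 9.35, 8.56 and 6.33 FPKM, and Slc30a10, the manganese exporter, was at 0 in all 18 tumors. Slc40a1, the iron exporter ferroportin, was separated at low levels, 0.812, 1.04 and 0.831 FPKM against 0.329, 0.801 and 0.77 FPKM. Redox and ferroptosis genes (13 of 23 higher, median 0.02, Cat at 0.13 ± 0.08) and endosome, lysosome and membrane repair genes (19 of 26 higher, median 0.11) were not separated for any member. Lgals8, a galectin that marks damaged endosomes, measured 11.0, 9.70 and 12.6 FPKM against 11.6, 18.2 and 11.9 FPKM.

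The unfolded protein and integrated stress list had 11 of 20 higher, with a median of 0.06, 2 higher at an unadjusted p under 0.05, where 1.00% of all genes were, and 4 separated. The separated members were Trib3, Asns and Chac1 on the higher side (1.89% of all genes) and Atf3, a stress-induced transcription factor, on the lower side (2.23%), at 9.15, 21.2 and 11.8 FPKM against 7.78, 7.88 and 7.75 FPKM (log2 difference −0.69 ± 0.34, SE). Hypoxia and glycolysis genes were higher for 19 of 25, with a median of 0.17, which was 0.01 without framework tumor 3 and 0.30 without framework tumor 2, and Ankrd37, a hypoxia-inducible gene, was separated on the lower side at −0.33 ± 0.33. Cell cycle genes were higher for 18 of 30 (median 0.02, Cdk2 at 0.21 ± 0.17), and without polymer tumor 2 for 6 of 30 (median −0.05). Cell death genes were higher for 11 of 22, with Bak1 at an unadjusted p under 0.05, and Bbc3, the p53 target PUMA, was separated at 0.17 ± 0.17. Replication-dependent histones had 6 of 25 tested, all lower, with H1f3 at −0.45 ± 0.30.

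The sign of further list medians near 0 turned when 1 tumor was left out. Without framework tumor 2 the median was −0.14 for PD-L1 and its interferon-JAK-STAT control, −0.04 for RNA sensors and adaptors, 0.02 for the nuclear respiratory chain and −0.19 for skeletal muscle genes. Without polymer tumor 2 it was 0.13 for T and NK cell genes and 0.04 for cGAS-STING genes. It was −0.04 for metal handling genes without polymer tumor 1, −0.08 for redox and ferroptosis genes without framework tumor 3, and −0.04 for the unfolded protein and integrated stress list without framework tumor 1. Without 1 tumor the median ranged from −0.32 to 0.20 for dendritic cell genes and from −0.04 to 0.09 for cell death genes. For skeletal muscle genes the range was −0.32 to 0.70. The medians kept their sign without each tumor for the mitochondrial, endothelial, fibroblast, adipocyte, melanocyte and endosome lists.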

How the data were processed

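RNA of 18 B16F10 tumors, 3 in each of 6 groups, was sequenced from poly(A)-enriched libraries. The authors deposited FPKM values for 41079 genes, which are scaled by gene length and by the depth of each tumor. The mouse build GRCm39 comes from the submitters' processing notes, and an aligner and counting tool are not given in the sources used here. Groups come from the sample titles. The study's text describes mice that were injected in 1 flank and randomized to groups, but which mice the sequenced tumors came from is not stated, so the p values measure the spread between these samples.

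Genes averaging 1 FPKM or more over the 18 tumors (12357) were fitted on the log2(FPKM + 1) scale with limma 3.58.1 in R 4.3.3 (1 mean per group, trend, no replicate block), contrasting PS473@NKMOF-101-[Mn] with PS473@CPs. Differences are on that log2 scale, which understates changes of low genes. Genes were called at a Benjamini-Hochberg adjusted p under 0.05 and over 2-fold. The fit was tested on simulated data. Low values (FPKM times length under 300) were whole multiples of 1 fragment, within 0.02 fragments, for 49.4% to 55.0% only, and multiples of 0.25 fragments for 98.2% to 99.4%, so they are not whole reads and count models were not used. Recovered depth was 17212000 to 28401000 fragments.

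The comparison and its 33 gene lists were chosen with earlier results of these data known. Named genes are Cd274, the 10 smallest p in each direction, up to 2 separated members of each list (otherwise that with the smallest p), fixed pathway and marker genes, and the 13 mitochondrial mRNAs. Of the 10 lower genes, 1 is not reported here. Epb41l4aos, the globins, Junb, Vcam1, Sdc1, Bak1 and the genes and lists of the closing section were chosen after their values were seen. Sequences come from the study's design table, GENCODE M21 and RefSeq (GRCm38). Alternatives were a pseudocount of 0.1, other filters, quantile and upper-quartile scaling, no trend, array weights, the 6 tumors alone, a replicate block, an unadjusted p and leaving out each tumor.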

Additional observations from a re-analysis of the deposited data

How the results depend on the processing

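With 0 genes called, the count stayed at 0 under every other setting and without each tumor in turn, except that it was 33 with an unadjusted p under 0.05 and the same fold threshold. With no filter, 1 gene, Serpina1a, had an adjusted p of 0.00229, but its log2 difference of 0.13 was below the fold threshold, and under the other settings no gene had an adjusted p under 0.05. The 283 genes at an unadjusted p under 0.05 became 858 with no filter, 473 with a filter at a mean of 0.1 FPKM, and 122 when the 6 tumors were fitted alone, and ranged from 87 to 932 without 1 tumor, the lowest without polymer tumor 2 and the highest without polymer tumor 3. Of these genes 72 and 58 of the 283 were shared with the fit of the 6 tumors alone and with that without polymer tumor 2. The 509 genes without overlap became 1301 with no filter and 856 with the filter at 0.1 FPKM. The 33 genes over 2-fold lower became 53 with a pseudocount of 0.1, 19 with the 6 tumors alone and 15 with array weights, whose estimate stopped before converging, and 15 to 140 without 1 tumor, the highest without polymer tumor 1. On the higher side the count of 0 became 9 with array weights and at most 15 without 1 tumor. The Cd274 difference of 0.18 ranged from −0.25 to 0.59 without 1 tumor and was reversed without framework tumor 2. Mt1 turned from −0.01 to 0.0382 under quantile normalization and 0.00781 under upper-quartile scaling. The cause of these shifts was not tested.

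Replicate numbers are shared between groups, but the titles do not say that they pair tumors, so the numbers were not taken as pairs. The deviations of same-numbered tumors correlated across genes at 0.45, 0.33 and 0.02. What these correlations come from was not tested. With a replicate block, 0 genes were called and 271 had an unadjusted p under 0.05, 227 of them from the 283. Of the 3 framework tumors, 3 correlated best with their own number, and of the polymer tumors 2 did. The Cd274 difference under the block was 0.18. No call changed.

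Without 1 tumor, Adgre1 ranged from −0.19 to 0.037, Gzmb from −0.68 to 0.28, Mt1 from −0.25 to 0.22, Mt2 from −0.14 to 0.20, Slc39a14 from −0.0394 to 0.21, Cgas from −0.13 to 0.18, Isg15 from −0.14 to 0.69, Krt14 from −5.06 to 0.31, Krt5 from −4.54 to 0.31 and Trp63 from −1.47 to 0.11, each with a change of sign. What the depth of 17212000 to 28401000 fragments limits was not tested. The 3 tumors a group leave a median 95% half-width of 0.32 on the log2 scale.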

Other observations

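Beyond the lists above, some genes with small p share a known role. Trib3, Pck2, Aldh18a1 and Gars1 of the 10 higher genes are targets of ATF4, the transcription factor that adjusts amino acid supply under stress, and a list of 32 such targets was therefore drawn up after the values were seen, so that its counts are a description. Of 29 tested, 25 were higher in framework tumors, with a median log2 difference of 0.32 against 0.0013 for all genes, and 7 had an unadjusted p under 0.05, where 1.00% of all genes did on that side. Trib3 and Pck2, whose small p helped to prompt the list, are counted among the 7. The share of all genes is therefore not a fair measure for that count. Asns, asparagine synthetase, measured 39.4, 33.4 and 39.5 FPKM with the polymer and 55.9, 41.0 and 67.9 FPKM with the framework. Slc6a9, a glycine transporter, measured 2.33, 2.60 and 2.56 FPKM against 4.16, 3.38 and 3.41 FPKM, and Chac1, a glutathione-degrading enzyme, 6.53, 4.39 and 4.24 FPKM against 7.41, 6.76 and 9.64 FPKM. These 3 genes were separated, and Gpt2, an alanine transaminase, overlapped at 2.21, 2.49 and 2.81 FPKM against 4.69, 2.78 and 3.89 FPKM. Atf4 itself had a log2 difference of 0.11 ± 0.14 (SE). The median of the list was 0.14 to 0.38 without 1 tumor. The summed level of the list was 872 to 896 FPKM in polymer tumors and 871 to 1247 FPKM in framework tumors, so the groups overlapped. It was 929 to 1169 FPKM for PBS, 1089 to 1161 FPKM for Free PS473 and 1005 to 1301 FPKM for NKMOF-101-[Mn]. For M5@NKMOF-101-[Mn] it was 908 to 949 FPKM. By summed level the polymer tumors thus lay below the range of the other 12, and the framework tumors did not lie above it. The lowest framework tumor, at 871 FPKM, was below that range too. By the mean log2(FPKM + 1) of the list, polymer tumors at 3.74 to 3.92 overlapped M5@NKMOF-101-[Mn] at 3.89 to 3.95. The other 12 tumors measured 37.7 to 62.1 FPKM for Asns, a range that held 2 of 3 polymer tumors, and 2.97 to 5.31 FPKM for Gpt2, above all 3.

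ATF4 binds a composite element, searched here as TGATGNAA on both strands. It was found between 250 bases before and 50 bases after the start site in 7 of 26 list members with a RefSeq promoter (26.9%), and in 2.53% of 9214 tested genes and 4.51% of 27025 genes. The list was drawn up as targets of ATF4, so that share is a property of the choice of genes and not a result about these tumors. Windows around the match in Asns and Pck2, which were higher in framework tumors, and in Atf3, which was lower, come from RefSeq on GRCm38.p6. The match is in capitals and begins 23, 103 and 110 bases before the start site, in that order. Only the Asns window reaches the start site. Asns lies on the minus strand at chr6:7693210-7693258, Pck2 on the plus strand at chr14:55540137-55540196 and Atf3 on the minus strand at chr1:191183410-191183469. A match is a description and does not show binding.
Asns: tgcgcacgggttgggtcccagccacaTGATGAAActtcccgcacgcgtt
Pck2: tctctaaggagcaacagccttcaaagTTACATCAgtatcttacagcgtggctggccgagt
Atf3: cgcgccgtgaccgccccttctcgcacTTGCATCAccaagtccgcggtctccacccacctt

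Cytosolic aminoacyl-tRNA synthetases, which charge tRNAs with amino acids, were also listed after the values were seen, among them that of Gars1. Their counts, which include Gars1, are a description as well, and the share of all genes is not a fair measure for them. Of 20 tested, 16 were higher, with a median of 0.16, and 8 were higher at an unadjusted p under 0.05, where 1.00% of all genes were, and 3 without polymer tumor 2. Immediate early genes, which respond within minutes to growth factors and stress, were listed in the same way. The shares of all genes are not a fair measure for their counts either. Of 32 tested, 29 were lower, with a median of −0.55, 8 at an unadjusted p under 0.05 and 11 separated, where 1.29% and 2.23% of all genes were on that side. Without polymer tumor 2 the median was −0.28, with 29 of 32 lower and 2 at an unadjusted p under 0.05. The summed level of the list was 674 to 1576 FPKM in polymer tumors and 482 to 544 FPKM in framework tumors. It was 735 to 1023 FPKM for PBS, 516 to 844 FPKM for Free PS473 and 534 to 740 FPKM for NKMOF-101-[Mn]. For M5@NKMOF-101-[Mn] it was 485 to 797 FPKM, so low levels were not particular to the framework tumors.

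Small nucleolar RNAs, which guide the modification of other RNAs and lack poly(A) tails, were lower for 124 of 153 tested, with a median of −0.44. The mean log2(FPKM + 1) of 1050 listed was 0.467, 0.427 and 0.384 in polymer tumors and 0.447, 0.459 and 0.2 in framework tumors, so that framework tumor 3 was the lowest of 18. Without that tumor 62 of 153 were lower and the median was 0.11.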
